A study of Mus musculus with 2 samples.

Results

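T-box genes encode transcription factors that share a DNA-binding domain, the T-box, and that mark out limb, heart and mesoderm territories in the embryo. The group described here holds 10 of them, chosen by name, namely Tbx1, Tbx2, Tbx3, Tbx4, Tbx5, Tbx6, Tbx15, Tbx18, Tbx20 and Tbr1. A gene was counted as marked when the deposited annotation joined a peak of trimethylated lysine 27 of histone H3 (H3K27me3) to its symbol, which it did for peaks within 5 kb of the gene record. Of the 10 genes, 9 were marked through 32 peaks out of 19359 in the whole list, and Tbx6 was not. Across the genome the annotation joined peaks to 4987 gene symbols, and 20.7% of 21883 protein-coding genes were marked.

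H3K27me3 is placed by Polycomb repressive complex 2 (PRC2) and is found over silent developmental genes, often as broad domains rather than sharp peaks. Tbx2, Tbx3, Tbx4 and Tbx5 sit in the mouse genome as 2 linked pairs, Tbx2 beside Tbx4 and Tbx3 beside Tbx5. Tbx5 acts in the forelimb and the heart, and Tbx4 acts in the hindlimb. Tbx2 and Tbx3 encode repressors that act in limb, heart and other organs. Rib cartilage forms from the somites of the trunk and not from limb buds.

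The study asked which genes carry H3K27me3 in chondrocytes. The cells were wild-type chondrocytes of newborn CD1 mice, freed from dissected rib cartilage with collagenase, grown for a night in serum-containing medium and otherwise untreated. The labels do not say how many mice were pooled. One library was made from chromatin precipitated with an H3K27me3 antibody (ChIP, 17237574 filtered tags) and one from chromatin without precipitation (input, 17004082 filtered tags). The antibody tags of the submitted labels are the reverse of the sample titles, and the titles were followed. With 1 library of each kind there were no replicates, so no value below has a spread between samples or a test. Many are set beside the same value over all peaks or genes. The cover of gene records and of the stretches between and around the linked pairs has no such value beside it. In chromatin from many cells, a mark in fewer cells and a weaker mark in each cell cannot be told apart. Of 6 chondrocyte genes (Sox9, Col2a1, Acan, Col9a1, Matn1 and Comp), 0 had a peak, which with 20.7% of all protein-coding genes marked is a weak check of the cell label. Among genes of other cell types, peaks were present at 1 of 4 osteoblast genes (Ibsp), 2 of 3 muscle genes (Myod1 and Myf5), 1 of 3 endothelial genes (Kdr) and 1 of 2 blood genes (Ptprc).

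The promoters of 4 of these genes are shown, the only ones with a RefSeq promoter start at the 5′ end of the gene. Their starts differed in state. The start of Tbx1 and that of Tbx20 lay under a peak, that of Tbx18 lay in a gap between 2 peaks, and that of Tbx6 had no peak nearby. Each line gives the 250 bases before the start, taken from RefSeq on GRCm38.p6 and written 5′ to 3′ along the gene, with CpG dinucleotides in capitals. The promoter of Tbx1 is at chr16:18590672-18590921 on the minus strand, and that of Tbx20 is at chr9:24774304-24774553 on the minus strand. The promoter of Tbx18 is at chr9:87731261-87731510 on the minus strand, and that of Tbx6 is at chr7:126781233-126781482 on the plus strand.
Tbx1: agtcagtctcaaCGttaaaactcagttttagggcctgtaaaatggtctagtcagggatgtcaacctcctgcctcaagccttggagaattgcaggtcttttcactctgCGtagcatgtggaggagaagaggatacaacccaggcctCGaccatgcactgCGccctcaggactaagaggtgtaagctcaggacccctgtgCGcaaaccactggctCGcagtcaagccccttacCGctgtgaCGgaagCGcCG
Tbx20: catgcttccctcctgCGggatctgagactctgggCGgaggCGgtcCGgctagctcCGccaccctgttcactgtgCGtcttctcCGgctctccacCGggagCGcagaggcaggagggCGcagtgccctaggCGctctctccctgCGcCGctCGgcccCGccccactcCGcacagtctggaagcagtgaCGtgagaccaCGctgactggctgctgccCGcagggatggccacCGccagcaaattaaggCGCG
Tbx18: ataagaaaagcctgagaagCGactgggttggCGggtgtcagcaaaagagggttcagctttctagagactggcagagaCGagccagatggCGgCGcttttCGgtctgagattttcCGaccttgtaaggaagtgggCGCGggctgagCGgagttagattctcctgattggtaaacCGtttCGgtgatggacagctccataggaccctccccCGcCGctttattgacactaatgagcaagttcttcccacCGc
Tbx6: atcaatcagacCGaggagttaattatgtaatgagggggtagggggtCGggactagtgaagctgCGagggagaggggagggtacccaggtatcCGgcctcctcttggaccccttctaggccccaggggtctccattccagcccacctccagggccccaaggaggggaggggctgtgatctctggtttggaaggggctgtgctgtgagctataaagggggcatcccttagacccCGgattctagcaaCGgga

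All 250 bases of the Tbx1 and Tbx20 promoters lay inside peaks, against 18 bases of the Tbx18 promoter and 0 bases of the Tbx6 promoter. The Tbx20 promoter had 22 CpG dinucleotides, the Tbx18 promoter 15, the Tbx1 promoter 10 and the Tbx6 promoter 6. The RefSeq promoter table, whose windows of 300 bases add 50 bases after the start, had a window for 6 of the 10 genes. Tbx2, Tbx3, Tbx5 and Tbx15 were without one. Its windows for Tbx4 and Tbr1 began at starts inside the gene, 10398 bp and 1590 bp from the 5′ end of the gene in the RefSeq gene table. Of 7 windows at these genes, 5 had their start in a peak, against 4.58% of all 32851 windows. Both windows of Tbx1 were among the 5 and lay under the same peak, so they are not separate cases. The CpG count of these 5 ranged from 7 at Tbr1 and 8 at Tbx4 to 26 at Tbx20 and at the inner start of Tbx1, and the median of all windows was 7. The letters AGGTGT, the core of the sequence that T-box proteins bind, were searched on both strands and occurred in 1 of the 7 windows (the outer start of Tbx1), against 13.7% of all windows.

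The marked genes differed widely in how much of the mark they held. Tbx5 had 83.4 kb in 7 peaks and ranked 28 by summed peak length among the 4987 symbols. Tbx15 had 51.8 kb in 9 peaks and ranked 72. A middle group followed with Tbx4 (24.9 kb in 5 peaks), Tbx18 (21.9 kb in 3 peaks), Tbx20 (20.1 kb in 2 peaks) and Tbr1 (19.3 kb in 2 peaks). Tbx1 had a single peak of 12.1 kb, and Tbx2 had 2 peaks of 12.1 kb in sum. Tbx3 stood apart with 448 bp in 1 peak and rank 4772. The median over all symbols with a peak was 3.8 kb, so 8 of these genes lay above it and Tbx3 lay below it.

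**Figure D1:**
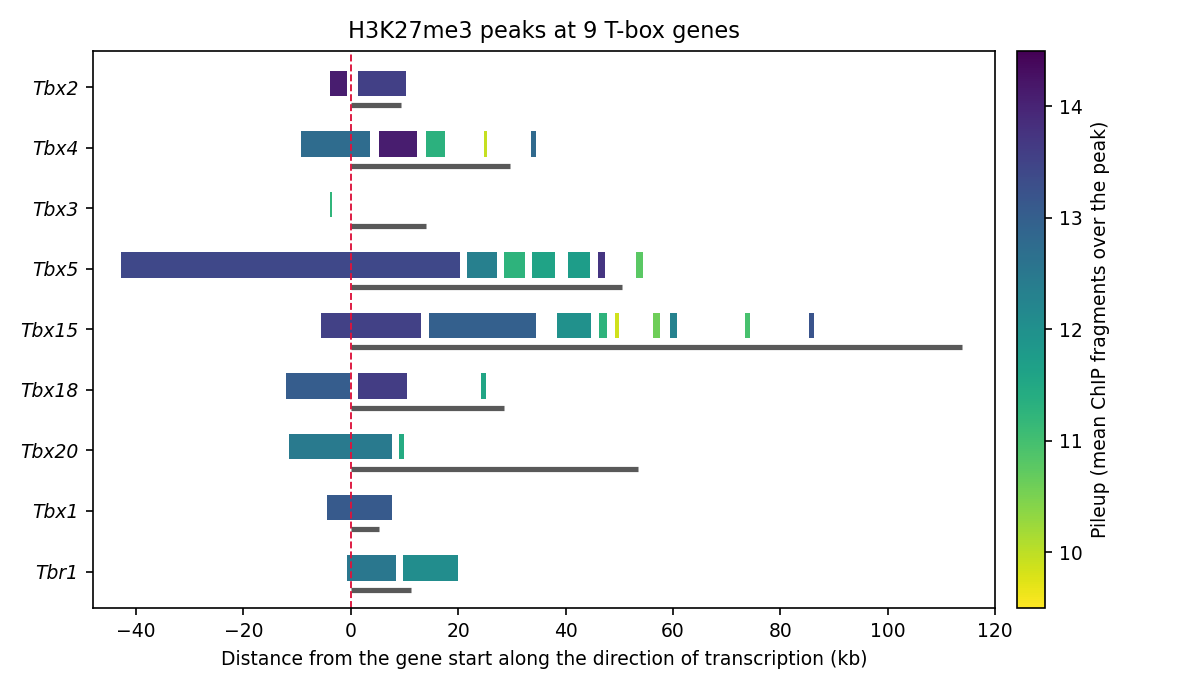
Peaks at the 9 marked genes, drawn by their distance in kb from the gene start (dashed line) along the direction of transcription, with the gene record as a grey bar below each row and the colour giving the pileup in fragments. The peak over the start of Tbx5 runs from −42.7 kb to 20.3 kb, and Tbx3 has a single peak of 448 bp upstream of its start.

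Forelimb and hindlimb genes were both marked. Tbx5 (ENSMUSG00000018263, chromosome 5, 119834664 to 119885218, plus strand) lay under a peak of 63.1 kb (119791924 to 119855013) that ran from −42.7 kb to 20.3 kb relative to the start. By length it ranked 7 among the 19359 peaks. Its pileup, the number of ChIP fragments averaged along the peak, was 13.41, its fold enrichment over input was 3.53 and its q-value was 0.00570. The other 5 peaks inside Tbx5 measured 5.58, 3.89, 4.29, 4.14 and 1.19 kb and had pileups of 12.35, 11.26, 11.59, 11.73 and 13.73 in the direction of transcription. The last of them, 46.1 kb into the gene, was the shortest of the 5 and had the highest pileup of all 7 Tbx5 peaks. A peak of 1.22 kb beyond the gene end had a pileup of 10.78 and a q-value of 0.0545. Peaks covered 78.0% of the Tbx5 record. The reference gene table puts the 5′ end of Tbx5 38.2 kb further upstream (119796514), and this start also lay under the peak of 63.1 kb.

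Tbx4 (ENSMUSG00000000094, chromosome 11, 85886423 to 85916097, plus strand) was covered at its start by 12.9 kb of mark (85877125 to 85890072), where the pileup was 12.75, the fold enrichment 3.29 and the q-value 0.0146. The next peak, of 6.93 kb and 5.32 kb into the gene (85891744 to 85898674), was higher. Its pileup was 14.10, its fold enrichment 3.78 and its q-value 0.00204. This was the highest pileup of all 32 peaks, and the start of the RefSeq promoter window of Tbx4 fell inside it. Pileups of 11.30 and 9.94 followed in peaks of 3.66 kb and 459 bp further along the gene, and a peak of 905 bp beyond the gene end had a pileup of 12.79. The peak of 459 bp had a q-value of 0.0918. Peaks covered 49.5% of the Tbx4 record, less than at Tbx5.

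The repressor genes of the pairs differed from each other. Tbx2 (ENSMUSG00000000093, chromosome 11, 85832552 to 85841948, plus strand) was flanked upstream by 3.10 kb of mark (85828692 to 85831795), and a second stretch of 8.96 kb lay over the gene body and its end (85833810 to 85842769). Their pileups were 14.09 and 13.56, their fold enrichments 3.74 and 3.66, and their q-values 0.00237 and 0.00361. Lower pileups were found in 98.5% and 97.2% of all peaks. The peaks left a gap of 2014 bp over the Tbx2 start, which ran from 757 bp before it to 1258 bp after it. The upstream peak was also joined to Bcas3 and to the non-coding RNA gene 2610027K06Rik, and the peak over the gene was also joined to 2610027K06Rik. The body of Tbx2 was covered to 86.6%.

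Tbx3 (ENSMUSG00000018604, chromosome 5, 119670670 to 119684724, plus strand) had no peak over the gene, so 0% of its record was covered. Its only peak within 5 kb was 448 bp long (119666718 to 119667165) and ended 3505 bp upstream of the start, and its pileup was 11.23, its fold enrichment 3.14 and its q-value 0.0391. This pileup was close to the median of all peaks, which was 11.04. The peak lay inside the deposited record of the non-coding RNA gene AW549542. The next peak upstream ended at −5.71 kb from the Tbx3 start, just outside the reach of 5 kb, and had a length of 1.86 kb and a pileup of 10.54. A stretch of 36.7 kb without a peak (119667166 to 119703823) held the whole of Tbx3. Tbx3 was thus counted as marked through 1 short flanking peak, while Tbx2, Tbx4 and Tbx5 had peaks over their bodies.

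The pair with the longer summed peaks owed them to Tbx5. Both pairs are transcribed in the same orientation, with the repressor gene first. The summed peak length was 37.0 kb for Tbx2 and Tbx4 and 83.8 kb for Tbx3 and Tbx5. Counting only peaks with a q-value of at most 0.01, or only those with a fold enrichment of at least 3.5, the sums were 18.995 kb and 64.3 kb. Between Tbx2 and Tbx4, peaks covered 13.1 kb of the 44.5 kb (29.6%), and this included the upstream end of the peak over the Tbx4 start. Between Tbx3 and Tbx5, peaks covered 55.4 kb of 149.9 kb (37.0%), and this included the upstream end of the peak of 63.1 kb. With the reference start of Tbx5 the stretch was 111.8 kb long and covered to 15.4%, below the 29.5% between Tbx2 and Tbx4 with reference positions, so the order of the pairs turned with the start used. That intergenic stretch also held a peak of 7.41 kb that began 19.1 kb beyond the end of Tbx3, with a pileup of 12.26. It was longer than the 448 bp peak of Tbx3, but it was joined to no gene because it lay outside the reach.

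Both pairs were followed by gene-poor stretches that carried further peaks. From the end of Tbx4 to Brip1, 11 peaks covered 13.6% of 142 kb, with pileups from 9.89 to 12.79. From the end of Tbx5 to Rbm19, 28 peaks covered 24.8% of 231 kb, with pileups from 9.86 to 12.72 and a longest peak of 5.07 kb. Of these 28 peaks, 27 had no gene symbol in the deposited annotation, and 8 had a q-value over 0.05. On the other side, Tbx2 lay 6.49 kb from the end of Bcas3, and 66.6% of that stretch was covered. The stretch from Med13l to Tbx3 was 905 kb long and was covered to 2.96% by 22 peaks. Counting from neighbour to neighbour, peaks covered 25.7% of 232 kb around Tbx2 and Tbx4 and 13.2% of 1351 kb around Tbx3 and Tbx5. The pair with the longer summed peaks was less densely covered over its whole interval, but 905 kb of that interval was the sparse stretch before Tbx3. Beyond the second gene of each pair the order was the reverse, with 24.8% covered after Tbx5 and 13.6% after Tbx4.

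**Figure D2:**
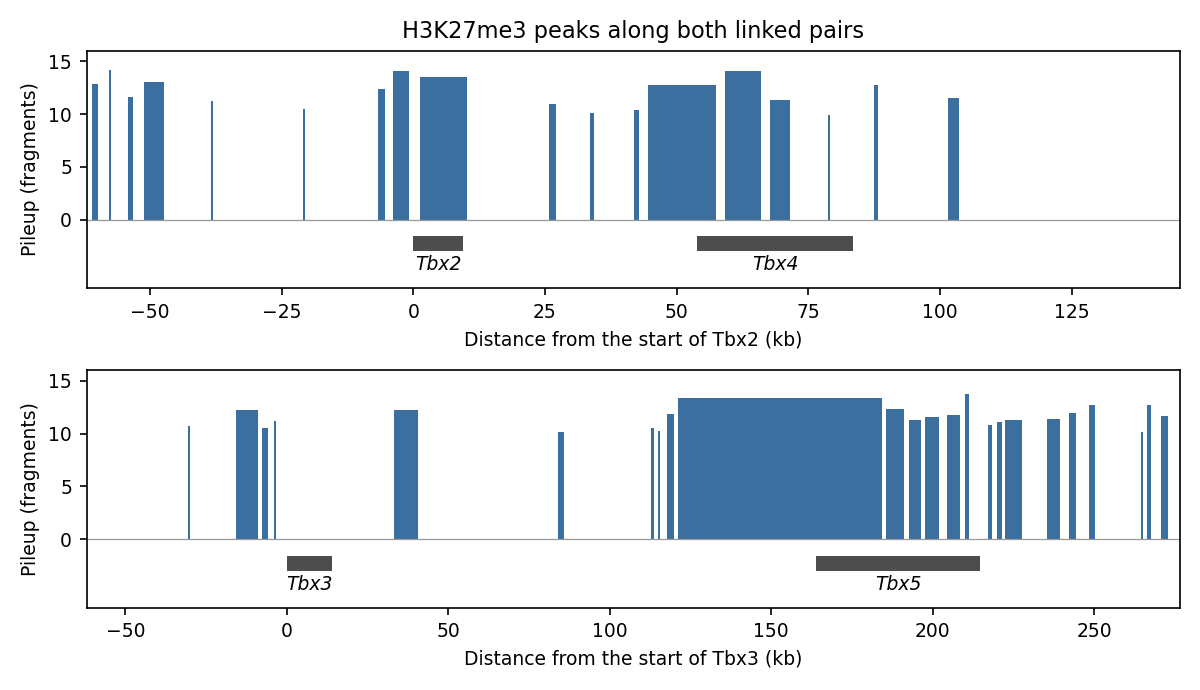
Peaks along the 2 linked pairs, by distance in kb from the start of Tbx2 (top) and of Tbx3 (bottom). Each blue bar is 1 peak with its pileup in fragments as its height, and grey bars mark the gene records. Tbx2, Tbx4 and Tbx5 carry peaks over the gene, while a stretch of 36.7 kb around Tbx3 carries none.

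Of the genes of skeleton and somites, Tbx15 was marked over its start, Tbx18 on both sides of it, and Tbx6 not at all. Tbx15 (ENSMUSG00000027868, chromosome 3, 99240382 to 99354259, plus strand), which shapes cartilage and skin patterning, had all 9 of its peaks over the gene. The first was 18.8 kb long and covered the start (99234735 to 99253503), with a pileup of 13.53, a fold enrichment of 3.68 and q = 0.00341. The second, of 20.1 kb, had a pileup of 12.98. The 7 further peaks were 732 bp to 6.23 kb long and had pileups of 9.86 to 13.20. The peaks beyond the first 2 were shorter, and 2 of them had a q-value over 0.05. The peak furthest from the start, 85.4 kb into the gene and 889 bp long, had a pileup of 13.20 and a fold enrichment of 3.85. A peak of 732 bp in the middle of the gene had a pileup of 9.86, the lowest in the whole list. Peaks covered 40.5% of the Tbx15 record, and the first peak was also joined to Wars2.

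Tbx18 (ENSMUSG00000032419, chromosome 9, 87702801 to 87731260, minus strand), which keeps the anterior part of each somite distinct, had a peak of 11.8 kb upstream (87731493 to 87743284) and a peak of 9.08 kb inside the gene (87720871 to 87729946). Their pileups were 13.04 and 13.61, their fold enrichments 3.63 and 3.81, and their q-values 0.00498 and 0.00221. The gap between them was 1546 bp long and contained the start, from 233 bp before it to 1314 bp after it. Another peak of 992 bp lay 24.2 kb into the gene with a pileup of 11.57. At Tbx18 and Tbx2, then, the start itself was free of a called peak while both sides were marked. Of all protein-coding genes, 3.63% had peaks within 5 kb on both sides of an uncovered start. No 2 peaks in the whole list were closer than 1177 bp, so narrower gaps would not be seen. Over the 874 symbols of the deposited annotation with such a start, the median gap was 2204 bp (quartiles 1561 and 3512 bp), so the gap of Tbx2 lay inside the quartiles and that of Tbx18 just under them. These gaps were measured after the peaks had been seen.

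Tbx6 (chromosome 7, 126781483 to 126785548), which specifies presomitic mesoderm, was the only one of the 10 genes without a peak. The nearest peak was 39.1 kb away, joined to Fam57b and 4930451I11Rik, with a pileup of 10.20 and a q-value of 0.0736. On the other side the nearest peak was 50.047 kb away. Tbx6 lies in a dense stretch of genes, with Ppp4c 0.318 kb, Ypel3 0.973 kb and Gdpd3 5.84 kb away. At this depth a mark below the lowest pileup called, 9.86, would not have been detectable there. The local input background at Tbx6 was not worked out, so the limit there may lie higher.

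Tbx20 and Tbx1 were marked across their starts. Tbx20 (ENSMUSG00000031965, chromosome 9, 24720813 to 24774303, minus strand), a regulator of cardiac growth, had a peak of 19.2 kb over its start (24766680 to 24785850) with a pileup of 12.45, a fold enrichment of 3.51 and q = 0.00898. Another, of 963 bp, had a pileup of 11.45. The first peak ran from −11.5 kb to 7.62 kb relative to the start and the other lay 9.02 kb into the gene, so that 16.1% of the record was covered. Tbx1 (ENSMUSG00000009097, chromosome 16, 18581714 to 18586969, minus strand), which patterns the pharyngeal arches, lay entirely under its single peak of 12.1 kb (18579288 to 18591419). The pileup of that peak was 13.11, its fold enrichment 3.56 and its q-value 0.00579. The reference gene table extends Tbx1 by 3.70 kb at the 5′ end, and that start was covered too.

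Tbr1 (ENSMUSG00000035033, chromosome 2, 61802931 to 61814114, plus strand), known from neurons of the cerebral cortex, had 19.3 kb of mark in 2 peaks, near the median of the 9 marked genes (20.1 kb). A peak of 9.02 kb covered the start (61802303 to 61811325) and a peak of 10.3 kb covered the gene end (61812658 to 61822928). Their pileups were 12.52 and 12.07, their fold enrichments 3.54 and 3.48, and their q-values 0.00788 and 0.0112. The record was covered to 88.1%, the highest share after Tbx1. The first peak was also joined to Psmd14, which encodes a proteasome subunit.

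Counted over the 10 genes, 6 had a peak over the start (Tbx1, Tbx4, Tbx5, Tbx15, Tbx20 and Tbr1), against 4.46% of all protein-coding genes. A peak with a q-value of at most 0.01 was present at 8 of them, against 5.9% of all protein-coding genes, and Tbx3 was the marked gene without one. These counts describe a list chosen by gene name with results of these data known, and they carry no test. Of the 32 peaks, 19 lay inside a gene, 5 covered a start, 1 covered a whole gene, 2 covered a gene end, 3 lay upstream only and 2 downstream only.

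As a set the 32 peaks were longer and higher than the list as a whole. By rule all 32 were joined to a gene, while the whole list also holds peaks joined to no gene. A comparison with gene-joined peaks alone was not made. Their median length was 4.02 kb, against 1270 bp for all peaks. Of the 32 peaks, 8 were 10 kb or longer, at 7 of the genes, and of all peaks 3.46% were. The median pileup was 12.32 (range 9.86 to 14.10), against 11.04 for all peaks (quartiles 10.44 and 11.79). Pileup also moved with length in the whole list, where the median pileup was 10.73 in peaks under 1 kb, 11.15 in peaks of 1 to 10 kb and 12.61 in peaks of 10 kb or more. Within the same length classes the T-box peaks had medians of 11.34 (8 peaks), 12.14 (16 peaks) and 13.01 (8 peaks). The local input background under them, worked out from pileup and fold enrichment, ranged from 2.67 to 3.58 fragments, and its median was 2.85 against 2.75 over all peaks. Of the 32 peaks, 4 had a q-value over 0.05 (12.5%), and in the whole list 39.2% had.

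**Figure D3:**
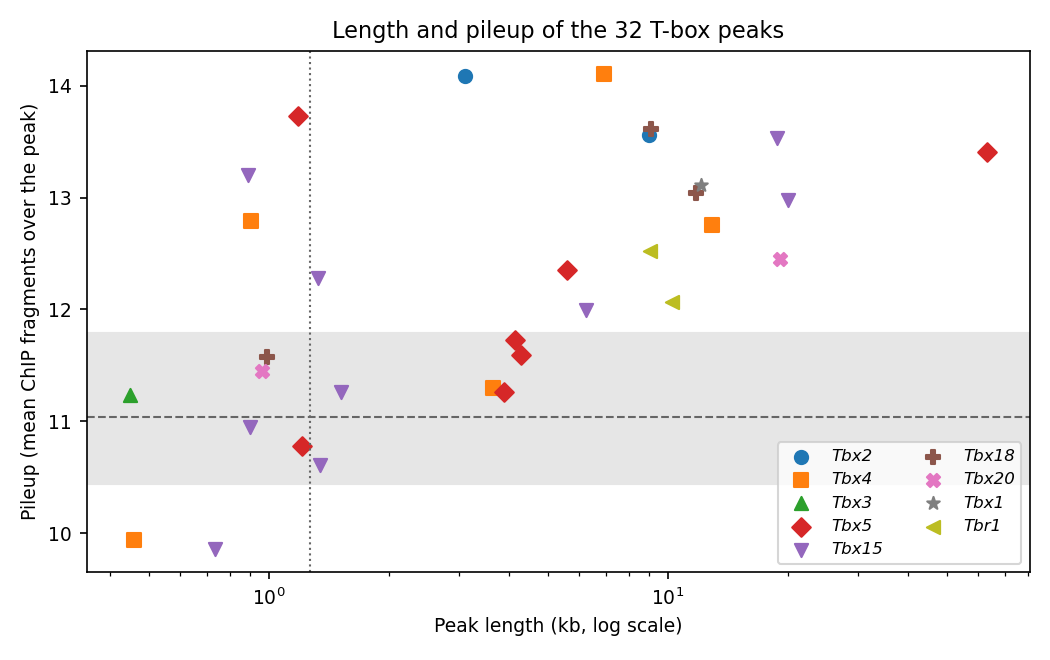
Length in kb (log axis) and pileup in fragments of the 32 peaks, 1 point a peak and 1 symbol a gene. The dashed line and grey band give the median (11.04) and quartiles of the pileup over all peaks and the dotted line the median length, and all 8 peaks of 10 kb or more lie above a pileup of 12.

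The surroundings of the genes were measured without the reach of the annotation, with gene positions of the reference table. Over each gene with 50 kb on either side, peaks covered 54.7% at Tbx5, 30.2% at Tbx2, 28.1% at Tbx4, 26.6% at Tbx15, 23.0% at Tbx18, 21.6% at Tbr1, 15.1% at Tbx3, 14.3% at Tbx20, 13.3% at Tbx1 and 3.70% at Tbx6. The windows of Tbx2 and Tbx4 overlap, and this measure was added after the peaks had been seen. Of all protein-coding genes, 54.7% had no peak in this window, and the 90th percentile was 10.3%. All genes but Tbx6 lay above that percentile, also Tbx3, whose body was free of peaks. Only 79 of 21883 protein-coding genes had more cover than Tbx5.

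**Figure D4:**
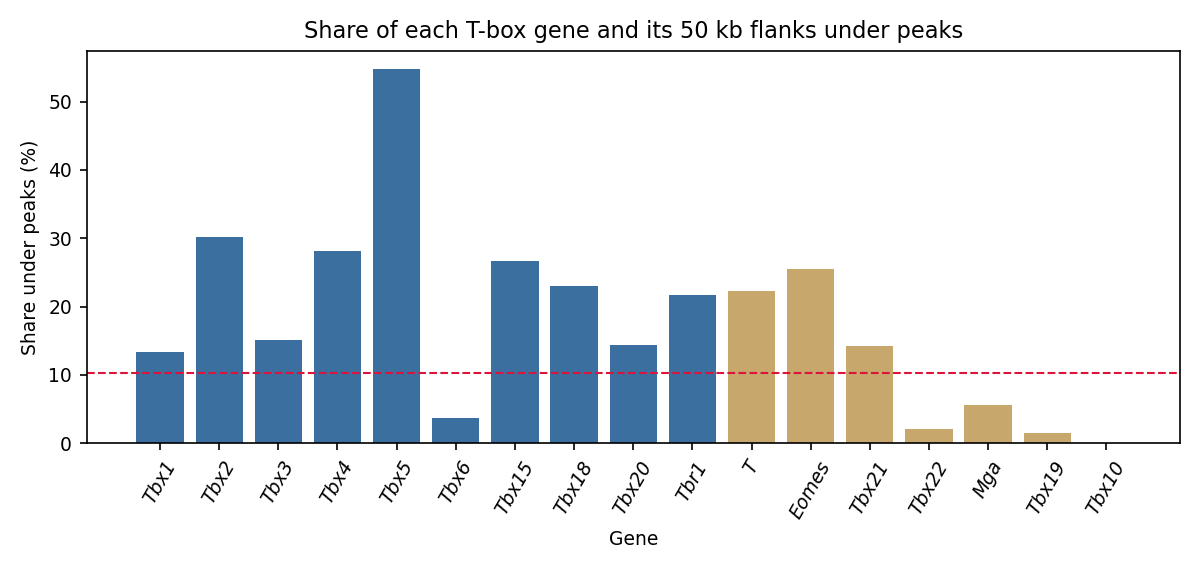
Share in percent of each T-box gene with 50 kb on either side that lay under peaks, with the 10 genes described in blue and the other 7 T-box genes in brown. The dashed line is the 90th percentile of all protein-coding genes (10.3%), and 9 of the 10 blue bars exceed it.

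Of the other 7 mouse T-box genes, 4 had a peak, or 5 with reference gene positions, and 1 had a covered start, against 20.7% and 4.46% of all protein-coding genes. Eomes, which acts in early mesoderm and in neural progenitors, had 27.1 kb in 3 peaks, and its start lay in a gap of 1639 bp. T, which encodes Brachyury of the notochord, had 15.4 kb in 2 peaks, of which the longer, of 14.8 kb, covered the start. Tbx21, the T-bet factor of T cells, had 16.4 kb in 4 peaks, and its start lay in a gap of 2491 bp. Tbx22, a palate gene on the X chromosome, had a single peak of 2.54 kb that began 5.80 kb into the gene. Tbx10, Tbx19 (a pituitary factor) and Mga were not marked. The nearest peak was 78.1 kb from Tbx10, 12.8 kb from Tbx19 and 3.77 kb from Mga, as the reference gene table places them. Of the 4 marked genes only T had a covered start. With Tbx2 and Tbx18, 4 of the 17 T-box genes thus had an uncovered start with peaks within 5 kb on both sides, against 3.63% of all protein-coding genes.

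Of 38 genes that act with these factors in the same tissues, 29 had a peak and 17 a covered start, against 20.7% and 4.46% of all protein-coding genes. In the limb field, 12 of 14 genes had a peak, 8 had a covered start and 11 had a peak with a q-value of at most 0.01, which 5.9% of all protein-coding genes had. The largest summed lengths there were at Hand2 (51.2 kb in 1 peak), Lmx1b (47.8 kb in 7 peaks) and En1 (35.9 kb in 3 peaks), and Meis1 and Meis2 had none. Fgf10, a signal that Tbx4 and Tbx5 switch on in limb mesenchyme, had 2.502 kb in 2 peaks and an uncovered start. Pitx1, which acts above Tbx4 in the hindlimb, had a single peak of 31.3 kb over its start. Among heart genes 7 of 12 were marked, 3 had a covered start and 4 had a peak at that q-value, with the largest sums at Gata4 (57.9 kb), Nkx2-5 (43.4 kb) and Isl1 (27.0 kb). The heart genes without a peak were Mef2c, Nppa, Nppb, Bmp10 and Myl7. Among genes of the presomitic mesoderm and somites 10 of 12 were marked and 6 had a covered start, but 3 had a peak at that q-value. The largest sums were at Uncx (35.6 kb), Dll1 (22.1 kb) and Dll3 (12.8 kb). Mesp2, a target of Tbx6 in that tissue, had a peak of 1.70 kb over its start, whereas Tbx6 had none. Fgf10, Pitx1, Mesp2, the neighbours of Tbx6 and the unmarked genes of these lists were chosen for mention after their values were seen.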

How the data were processed

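One H3K27me3 ChIP library and 1 input library of primary rib chondrocytes were grouped by sample title. The submitters' processing notes name CASAVA 1.8.4, Bowtie2, MACS2 and mm10, and per the file headers broad peaks were called with MACS 2.1.0.20140616 (fragment length 294 bp, q-value cutoff 0.05). For each peak the authors deposited a coverage signal (pileup), a ratio (fold enrichment of ChIP over local input) and a −log10 q-value averaged along the peak, which corresponds to a q-value over 0.05 for 39.2% of the peaks. The deposited annotation joins peaks to Ensembl records within 5 kb, by a tool not given in the sources used here. All 19359 peaks had the same values in both deposited tables. Tag totals were 17574613 (ChIP) and 17369199 (input) before filtering.

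Symbols joined by a semicolon were split, and peaks were counted, summed and placed with Python 3.11.15, pandas 2.3.3 and numpy 2.4.6. The steps for overlap and distance of intervals were tested on simulated intervals, and the step for a covered start on hand-written cases. The other steps were not tested in this way. Background shares refer to protein-coding genes in RefSeq on GRCm38.p6, the assembly of mm10. Local background was (pileup + 1)/fold enrichment − 1. The genes and lists were chosen with earlier results of these data known. Named were the 10 genes, the 7 other T-box genes, genes sharing their peaks, the neighbours of both pairs, and the top 3 of each partner list by summed peak length. Gaps around starts, cover within 50 kb, joined runs, CpG content and the AGGTGT search were added after the peaks had been seen. With 1 library of each kind no test was made, and alternatives changed the thresholds, the overlap, the gene positions and the definition of the start.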

Additional observations from a re-analysis of the deposited data

How the results depend on the processing

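Each of 10 results was recomputed under alternative settings, which gave 57 values, and 50 of them lay within 1.5 times the value reported. The number of the 10 genes with a peak stayed at 8 or 9 and the number with a covered start at 5 to 8, the last when a peak within 1 kb of the start was accepted. Tbx3 was lost when a q-value of at most 0.01, a fold enrichment of at least 3.5, a length of at least 1 kb or an overlap with the gene was required. The other 7 values were lower. At a q-value of at most 0.01, 13 peaks at these genes and 18 partner genes were left, and the summed length at Tbx2 and Tbx4 was 18.995 kb. At a fold enrichment of at least 3.5, 13 peaks, 15 partner genes and again 18.995 kb were left. With reference gene positions, an alternative chosen for the stretches between the pairs after seeing the data, 15.4% was covered between Tbx3 and Tbx5 in place of 37.0%. Mga was also marked with these positions. No paired analysis was possible because there was a single library of each kind. A mark below a pileup of 9.86 could not be detected at this depth.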

Other observations

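Peaks that lay within 5 kb of each other were joined into runs, which gave 10770 runs in the genome with a median of 1.69 kb under peaks. The run over Tbx5 spanned 98.4 kb, from −51.1 kb to 47.3 kb relative to the start, and its 9 peaks covered 85.8 kb, which ranked 20. The run over the Tbx15 start spanned 62.7 kb with 6 peaks and ranked 64. Runs of similar cover lay over Tbx4 (24.6 kb under peaks in a span of 29.6 kb), Tbr1 (24.1 kb in 31.7 kb) and Tbx18 (23.9 kb in 27.2 kb). The run of Tbr1 reached 31.0 kb from its start, well beyond the gene end. The peaks of Tbx2 joined 1 further peak at the end of Bcas3 into a run of 16.9 kb. The short peak of Tbx3 belonged to a run of 12.2 kb upstream of the gene, whose 3 peaks covered 9.15 kb.

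CpG content of a promoter window did not order the cover of starts in a single direction over the genome. A start in a peak was seen in 3.82% of 18570 windows with under 10 CpG dinucleotides, in 8.06% of 5580 windows with 10 to 19 and in 3.95% of 8701 windows with 20 or more. The T-box windows with a covered start fell in all of these classes.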
